A study of Mus musculus with 9 samples.

Results

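Cytosolic ribosomal protein (RP) mRNAs were examined in RNAseq of ribosomes pulled down with an antibody against phosphorylated ribosomal protein S6 (pS6-IP) from mouse olfactory epithelium (OE). The genes were taken by symbol, as Rpl or Rps followed by a number, plus Rplp0, Rplp1, Rplp2 and Rpsa. This gave 84 of the 23607 genes in the tables, 51 of the large subunit and its stalk and 33 of the small subunit. All 84 had a count in at least 1 mouse, and 80 passed the filter on low counts. The 4 that did not pass were Rpl3l, Rpl10l, Rpl22l1 and Rpl39l.

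The samples came from 9 C57BL/6 mice, each placed in a sealed container for 1 hr with filter paper carrying 10 µl of liquid. The liquid was distilled water for 3 control mice, 1% heptanal for 3 mice and 100% heptanal, an aldehyde odorant, for 3 mice. One mouse of each group was 22, 21 or 18 days old, and by the methods the mice of a replication were littermates of the same sex, so the ages are called litters 1, 2 and 3 here. The labels name no transgene or deletion, the liquid in which the 1% heptanal was diluted is not given in the sources used here, and no input RNA from before the pulldown was analysed here.

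The ribosome is built from a small subunit, which reads the mRNA, and a large subunit, which joins the amino acids, and most of its proteins are needed in equal number. Most RP mRNAs begin with a run of pyrimidines, the terminal oligopyrimidine (TOP) element, through which the mTOR pathway sets their translation together. S6 itself, encoded by Rps6, is phosphorylated by S6 kinases downstream of mTOR and in neurons after activity, and an antibody to that form recovers ribosomes with the mRNAs they carry. RP genes are also the best known source of processed pseudogenes in mammals, intronless copies of an mRNA that were inserted elsewhere in the genome, and short reads of the gene can match these copies equally well.

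Rps6 shows what the reads of this gene family face. The gene lies at chr4:86854660-86857412 on the minus strand of GRCm38 (mm10), and a search of that genome with its 747 coding bases found 16 copies of at least 90% identity outside the gene, 11 of them of at least 95%. One copy on chromosome 2 is identical to the coding sequence over all 747 bases. The last 50 coding bases, the length of 1 sequencing read, encode the C-terminal tail with the serines that are phosphorylated. Of the 16 copies, 5 hold these 50 bases without a mismatch, 9 with 1 to 3 mismatches and 2 with 4 or 5. The lines below give the gene and 4 copies, 5′ to 3′ on the coding strand, with bases that differ from the gene in capitals.
Rps6, exon 5, chr4:86854705-86854754, minus strand: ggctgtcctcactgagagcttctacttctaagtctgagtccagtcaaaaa
copy on chromosome 2, chr2:75191076-75191125, minus strand: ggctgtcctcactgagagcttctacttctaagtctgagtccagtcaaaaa
copy on chromosome 15, chr15:76338313-76338362, plus strand: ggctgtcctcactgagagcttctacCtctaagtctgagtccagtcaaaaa
copy on chromosome 8, chr8:88807088-88807137, plus strand: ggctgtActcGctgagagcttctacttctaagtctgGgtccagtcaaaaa
copy on chromosome 13, chr13:50950923-50950972, plus strand: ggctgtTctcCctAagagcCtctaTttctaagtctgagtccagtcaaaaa

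A read of the first sequence matches the gene and 5 copies equally, the one on chromosome 2 among them. The chromosome 13 copy differs from the gene at 5 of the 50 bases. The start of Rps6 is shown for its pyrimidine run, as 30 bases of which the first 10 lie before the RefSeq transcription start, with the run in capitals.
Rps6, chr4:86857348-86857377, minus strand: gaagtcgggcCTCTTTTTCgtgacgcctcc
A C at the RefSeq start base followed by 4 bases that are each C or T, read on the gene's strand only, was found in 13 of the 63 RP genes with a promoter in the RefSeq table (20.6%) and in 800 of the 26962 other genes with a promoter of the same length (2.97%). Within 10 bases of the start it was found in 39 of the 63 (61.9%) and in 34.3% of the others. A gene with several promoters was counted where any of them matched.

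The tables hold, for each gene, a count of reads that mapped to 1 place in the genome and estimated counts that add, step by step, reads that mapped to at most 20 places and were shared out by the authors' rescue scheme. The total of estimated counts was 5438494 to 9707592 per mouse, and the RP genes together had 144345 to 317697 of them. All 5 markers of mature olfactory sensory neurons (OSNs), Omp, Adcy3, Ano2, Cnga2 and Gnal, had counts in every mouse. Their summed share of the library was 0.405% to 0.87% in controls, 0.644% to 0.898% at 1% heptanal and 1.06% to 1.45% at 100% heptanal. The share of 5 sustentacular cell markers was 0.297% to 0.353% in controls, 0.335% to 0.384% at 1% and 0.485% to 0.725% at 100% heptanal. The share of 5 respiratory and gland markers was 0.137% to 0.189% in controls, 0.161% to 0.178% with 1% and 0.21% to 0.344% with 100% heptanal. For these 3 lists the mice at 100% heptanal lay above all others. The respiratory and gland genes did not move together, with log2 fold changes at 100% heptanal from -0.76 in Sox9 to 1.39 in Reg3g. Their median was 0.29. The means of basal and olfactory ensheathing glia markers at 100% heptanal were 0.678 and 0.774 times those of controls. Single basal genes ran from -0.78 log2 in Krt5 to 0.94 in Trp63. The share of 6 erythroid markers ran from 0.106% to 1.24% and was lowest in the 3 mice of litter 3. The part of these cell types in the results below was not tested. In a pulldown from whole OE, more cells of a type and more RNA per cell cannot be told apart. Nor can either be told apart from a larger part of that cell type's ribosomes being recovered by the antibody.

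The part of the pulldown taken by RP mRNAs did not differ between groups beyond the spread between mice. Their share of the estimated counts was 3.08%, 2.21% and 3.84% in the control mice of litters 1, 2 and 3. With 1% heptanal it was 3.29%, 2.65% and 3.08%, and with 100% heptanal 2.93%, 2.36% and 3.30%. The 95% Wilson interval of a mouse, such as 3.07% to 3.09% for the control of litter 1, covers counting error only and was far narrower than the spread between mice. The group ranges overlapped, and litter 2 had the lowest share in each group. The control mice averaged 3.04% ± 0.815, those given 1% heptanal 3.01% ± 0.322 and those given 100% heptanal 2.87% ± 0.474 (SD, n = 3 per group). The mean at 1% heptanal was 0.988 times that of controls, with ratios of 1.07, 1.20 and 0.802 within litters. At 100% heptanal it was 0.942 times, with 0.953, 1.07 and 0.86 within litters. The means of the litters, 3.10% ± 0.177, 2.41% ± 0.225 and 3.41% ± 0.392 (SD, n = 3 each), stood farther apart than those of the groups. The ratio at 100% heptanal rested on single mice, since it was 0.828 without the control of litter 2, 1.08 without the control of litter 3 and 1.02 without the 100% mouse of litter 2.

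Both subunits kept nearly the same part of the RP counts in every mouse. Small subunit genes made up 36.1% to 37.0% of the RP counts in controls, 36.3% to 37.3% at 1% and 35.8% to 37.0% at 100% heptanal.

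Set against the OSN markers, RP counts were lower at 100% heptanal than in the control of each litter. RP genes had 5.20, 2.54 and 9.48 counts per marker count in the controls of litters 1, 2 and 3. They had 5.06, 2.96 and 4.78 at 1% heptanal and 2.49, 1.62 and 3.12 at 100% heptanal. The mean at 100% heptanal was 0.42 times that of controls, and within litters the ratio was 0.48, 0.639 and 0.329, lower in 3 of 3, although the ranges of the groups overlapped. At 1% heptanal it was 0.743 times, and 0.974, 1.16 and 0.504 within litters. Within litters 1, 2 and 3 the OSN marker share itself, the denominator, was 1.99, 1.67 and 2.61 times that of the control at 100% heptanal, while the RP share, the numerator, was 0.953, 1.07 and 0.86 times. Of the 593009 marker counts over all mice, 469418 were of Omp, so the ratio followed Omp most. At 100% heptanal against control the log2 fold changes of the 5 markers ran from 0.29 in Adcy3 to 1.07 in Omp. Their median was 0.72. No test was run on these sums.

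**Figure D1:**
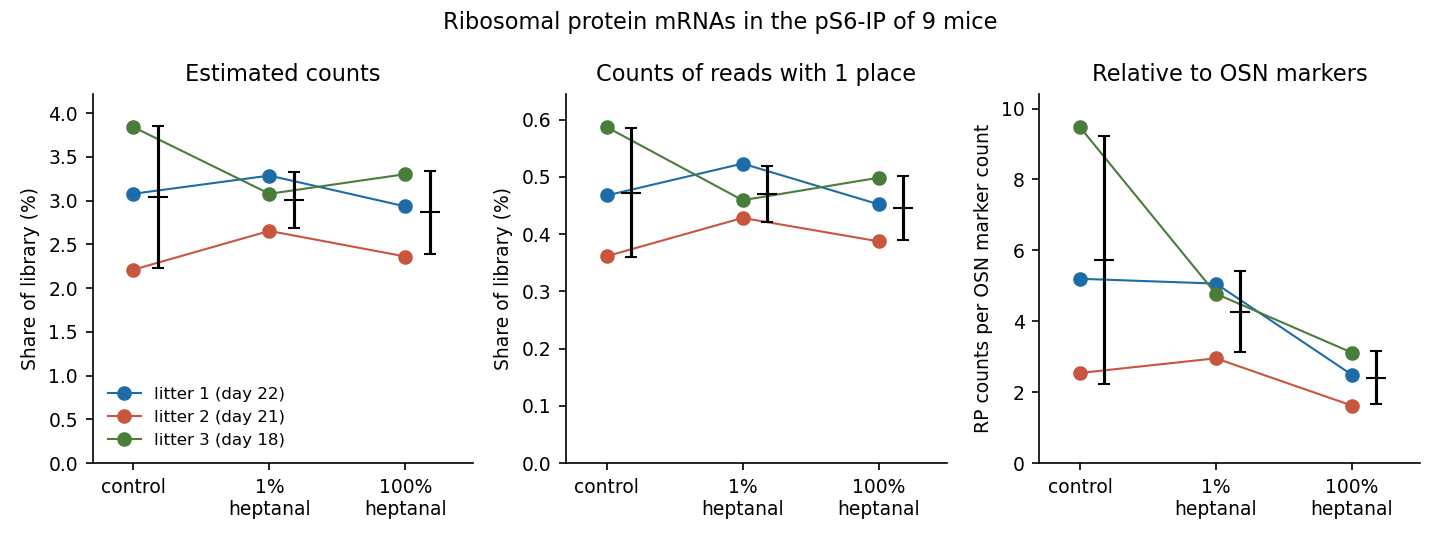
RP share of the library in estimated counts (left) and in counts of reads with 1 place (middle), in percent, and RP counts per count of 5 OSN markers (right), for each mouse. Points are mice, lines join littermates, and black bars are the group mean ± SD (n = 3). The shares overlap between groups with litter 2 lowest, while the ratio to OSN markers is lowest at 100% heptanal in each litter.

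No RP gene passed the test for a change with heptanal. With edgeR's quasi-likelihood test and Benjamini-Hochberg adjustment over 14930 genes, 0 of 80 RP genes were called at 1% heptanal against control, where 0% of all genes were called. The count was also 0 of 80 at 100% heptanal against control and at 100% against 1% heptanal, where 0.0134% of all genes were called in each comparison. The count at an unadjusted p under 0.05 was 0 of 80 in all 3 comparisons, against 0.797%, 4.17% and 3.26% of all genes. DESeq2 called 0 RP genes as well, where it called 0.0067%, 0.455% and 0.167% of all genes, and it had 0 RP genes at an unadjusted p under 0.05, where 1.06%, 4.66% and 3.99% of all genes were. With litter as a block, edgeR called 0 RP genes in each comparison, where it called 0, 0.322% and 0.0804% of all genes.

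In estimated counts, the fold changes of RP genes were narrower than those of genes at large. Their median log2 fold change was -0.01 at 1% heptanal, -0.12 at 100% heptanal and -0.09 for 100% against 1%, beside -0.02, -0.03 and 0.01 over all genes tested. Of the 80 genes, 33, 13 and 22 lay above 0 in these comparisons, beside 47.0%, 46.8% and 51.1% of all genes. The SD over RP genes was 0.19, 0.18 and 0.27 log2, and over all genes 0.50, 0.55 and 0.61. The median standard error of a single RP gene was 0.34 in each comparison. In reads with 1 place the SD was 0.39, 0.38 and 0.47 over RP genes and 0.47, 0.53 and 0.57 over all genes. RP genes and all genes were not matched in count level. The medians that follow are again of estimated counts. The median at 1% heptanal was 0.02 with litter as a block and 0.02 without TMM factors. At 100% heptanal it was 0.12 without the control of litter 3 and 0.03 without the 100% mouse of litter 2, so its sign rested on single mice.

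Rps6, whose product is the antigen, showed no difference between groups beyond its spread. Its counts per library after TMM scaling, in CPM, were 933, 638 and 1167 in controls of litters 1, 2 and 3. Mice given 1% heptanal had 1108, 659 and 972, and those given 100% heptanal 908, 668 and 988. Litter 2 was lowest in each group, and the groups overlapped. At 100% heptanal its log2 fold change was -0.09 ± 0.29 (SE, edgeR, adjusted p = 1.00). Of its 62342 counts over all mice, 954 came from reads with 1 place.

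Rplp0, the base of the large subunit's stalk, held the largest part of RP counts at 7.13%. Its level was 2173, 1689 and 3179 CPM in controls, 2394, 1873 and 1970 at 1% and 1634, 1718 and 2566 at 100% heptanal, with overlapping groups. Rpl4 followed with 5.97% of RP counts, then Rpsa, the small subunit protein also known as the laminin receptor, with 4.84%. Rpl3, which lies near the peptidyl transferase centre, held 3.81%, and Rpl8, a large subunit protein, 3.77%. None of these had an unadjusted p under 0.05 in a comparison.

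Among large subunit genes, the lowest p at 1% heptanal was that of Rpl26, a protein near the exit tunnel. It had 122, 70.7 and 158 CPM in controls and 76.5, 95.9 and 109 at 1% heptanal, and the groups overlapped (log2 fold change -0.32 ± 0.34, SE, edgeR unadjusted p = 0.375). Rpl5, which binds 5S rRNA, and Rpl29 were next among large subunit genes, at -0.19 ± 0.24 and -0.20 ± 0.27. At 100% heptanal Rpl35 was at -0.42 ± 0.38, Rpl29 at -0.32 ± 0.27 and Rpl7l1, a paralog of Rpl7, at -0.27 ± 0.25 (SE, edgeR). Rpl22, a large subunit protein with a known paralog, was at 0.23 ± 0.22. Each of these had an adjusted p of 1.00.

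Among small subunit genes, Rps3a1 was among the RP genes with the lowest p at 1% heptanal, with a log2 fold change of -0.18 ± 0.23 (SE, edgeR). For 100% against 1% heptanal, Rps21, a small subunit protein, was at -0.56 ± 0.56 and Rps27l, a paralog of Rps27 that is a known p53 target, at -0.59 ± 0.57. Rps27l had 94.8, 30.6 and 73.3 CPM in controls, then 124, 37.9 and 55.5 with 1% heptanal and 77.3, 27.8 and 39.5 with 100% heptanal. Its level was lower at 100% heptanal than in the control and than in the 1% mouse of every litter, yet the groups overlapped, and the litters stood farther apart than the groups. With litter as a block its unadjusted p was 0.0429 against control and 0.0207 against 1% heptanal, with adjusted p of 0.459 and 0.413 in edgeR. In the same fit Rpl35 against control and Rpl21 and Rps4x against 1% heptanal also had an unadjusted p under 0.05, so that 2 and 3 of 80 did, where 10.4% of all genes did in either comparison.

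Few RP genes had groups that did not overlap. No RP gene had all 3 mice at 1% heptanal, or all 3 at 100% heptanal, on 1 side of the controls, where 2.27% of all genes were higher and 1.64% lower at 1% heptanal and 5.97% were higher and 3.55% lower at 100%. For 100% against 1% heptanal, Rpl7a alone was lower without overlap, at 12.7, 14.02 and 14.5 CPM against 15.2, 14.8 and 14.6, and 0 RP genes were higher, where 4.16% of all genes were lower and 4.73% higher.

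RP genes tended to lie on the same side of their means in a mouse, and by litter more than by group. A gene's deviation is its log2 CPM in a mouse minus its own mean over the 9 mice. In the control of litter 3, 79 of 80 RP genes lay above their own mean, while in the control of litter 2 only 7 did. The counts were 60, 60 and 57 of 80 in the control, 1% and 100% mouse of litter 1, 7, 10 and 13 in litter 2, and 79, 35 and 57 in litter 3. The mean deviation was -0.03, 0.12 and 0.07 log2 in litter 1, -0.48, -0.23 and -0.31 in litter 2 and 0.58, 0.10 and 0.18 in litter 3. Litter 2 was below the mean at every concentration. Over all genes tested, 48.5% to 55.6% lay above their own mean in a mouse.

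The mean deviation of each mouse, taken as a profile common to all RP genes, held 21.7% of the sum of squares of their deviations, beside 3.96% over all genes. It held 13.3% without the control of litter 3 and 12.5% in reads with 1 place. In the same measure, 4 other genes of the cytosolic ribosome had 83.7% and the 6 RP pseudogenes listed under their own symbols 25.1%. The 20 ribosome biogenesis genes had 14.99%. The 14 TOP translation genes, a list that holds Tpt1, Hnrnpa1, Nap1l1 and Naca beside translation factors, had 11.95%. The 76 mitochondrial RP genes had 11.5% and the 17 genes of the S6 kinase and mTOR pathway 1.49%. The measure is higher in a smaller set even where its genes vary independently, so sets of different size cannot be ranked by it. Differences between litters held 77.5% of the common profile of the RP genes and differences between groups 0.322%. Of the sum of squares gene by gene, differences between litters held 80.03% in RP genes, 71.0% to 86.3% in the other 6 lists and 61.6% over all genes. These shares are descriptions, since the genes come from the same 9 libraries and are not replicates.

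A set of 7 RP genes went against the others. Rpl7, Rps4x, Rps24, Rps25, Rpl21, Rpl36a and Rps27 had litter means that spanned more than 4-fold, and all 7 were lowest in litter 1. They were picked after their values were seen, at a span of 2 log2 units. The next widest, Rps28, spanned 1.66 log2, while Rps27, the narrowest inside, spanned 2.22. Of all genes tested 12.7% spanned as much, and 8.75% of RP genes did. Of the other 73 RP genes, 67 were lowest in litter 2, 6 in litter 1 and 0 in litter 3. Of all 14930 genes tested, 3841 were lowest in litter 2, 6172 in litter 1 and 4917 in litter 3. Library names in the labels begin with YJC in litter 1 and with YJE in litters 2 and 3. A difference of litter 1 cannot be told apart from a difference between these series.

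Rps4x, the X-linked small subunit protein, had 44.1, 33.2 and 118 CPM in the control, 1% and 100% mouse of litter 1. It had 749, 562 and 791 in litter 2 and 1562, 1107 and 1254 in litter 3. Its geometric mean in litter 3 was 23.1-fold that in litter 1. Rpl7, a large subunit protein, had 36.8, 38.3 and 42.8 CPM in litter 1 and 1169, 941 and 1018 in litter 3. In litter 2 it had 667 in the control and 779 at 100% heptanal, but 164 at 1% heptanal. Rps24 and Rps25, small subunit proteins, were also low in that 1% mouse, at 20.2 CPM against 74.9 and 82.6 in its littermates and at 18.4 against 45.9 and 56.8.

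The reads with 1 place moved in step with these estimates for some of the 7. Rpl7 had 0, 0 and 6 such reads in the control, 1% and 100% mouse of litter 1, 16, 1 and 10 in litter 2 and 22, 12 and 24 in litter 3, out of 39849 estimated counts over all mice. Rps4x had 1, 0 and 1, then 6, 2 and 4, then 6, 9 and 2. Summed over a litter and not scaled for library size, Rpl21 had 30, 159 and 176 reads with 1 place in litters 1, 2 and 3. Rps24 had 34, 68 and 113, while its estimated level in litter 3 was 10.6-fold that in litter 1. Rps25, in contrast, had 25, 37 and 34, Rps27 53, 20 and 32 and Rpl36a 31, 34 and 38. Whether the rescue scheme, which shares out reads among places, set these levels was not tested.

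Leaving out these 7 genes raises the part of the common profile by the way they were picked, and for the remaining 73 it was 56.5% of the sum of squares. Their mean deviation was 0.18, 0.34 and 0.19 log2 in litter 1, -0.59, -0.22 and -0.42 in litter 2 and 0.46, -0.0043 and 0.063 in litter 3, and 72 of 73 were above their own mean in the control of litter 3 and 2 of 73 in that of litter 2.

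**Figure D2:**
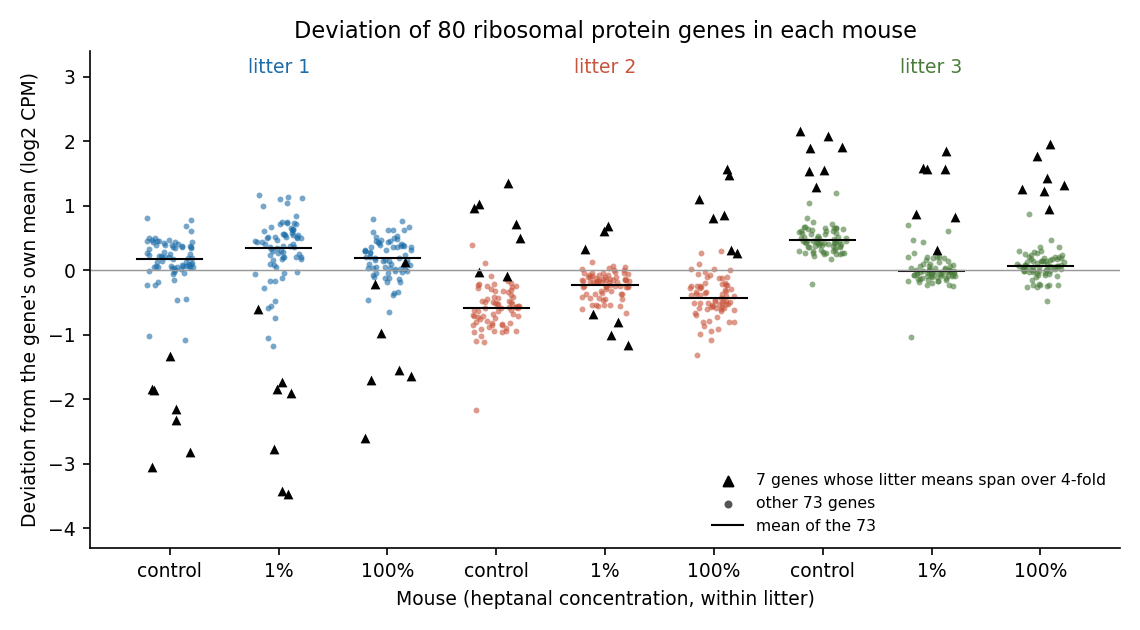
Deviation of each of 80 RP genes from its own mean over 9 mice, in log2 CPM (vertical axis), for each mouse by litter (horizontal axis). Dots are the 73 genes with litter means within 4-fold, bars their mean, and triangles the 7 genes beyond it. The dots sit together below 0 in litter 2, while the triangles lie below the bars in litter 1 and above them in litter 3.

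The RP counts rested largely on reads with several places. Between 87.8% and 89.4% of RP counts per mouse were reassigned, that is, came from reads with more than 1 place, beside 21.9% to 28.1% of the counts of other genes. Control mice averaged 88.7% ± 0.686, mice given 1% heptanal 88.5% ± 0.681 and mice given 100% heptanal 88.3% ± 0.451 (SD, n = 3 per group). Against the control of the same litter it was lower in 3 of 3 litters at both concentrations, by a mean difference of -0.225 ± 0.0045 percentage points at 1% and -0.377 ± 0.258 at 100% heptanal (SD, n = 3 litters). These differences were small beside the spread between litters, and no test was run on them. The reassigned share of other genes averaged 25.8% in controls, 24.6% at 1% and 23.5% at 100% heptanal. Its ratio to the control of litters 1, 2 and 3 was 1.08, 0.895 and 0.899 at 1% and 0.912, 0.987 and 0.846 at 100% heptanal. A fall at 100% heptanal was thus not particular to RP genes. RP genes held 7.31% to 11.3% of all reassigned counts of a mouse. In reads with 1 place the RP share was 0.468%, 0.362% and 0.587% in controls, 0.523%, 0.428% and 0.459% at 1% and 0.452%, 0.388% and 0.499% at 100% heptanal. In each group it put the 3 litters in the same order as the estimated share, with ratios to control of 0.996 and 0.945.

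The reassigned reads had many places. A median of 11.5% of RP counts came from reads with 1 place, 51.4% was reached with up to 6 places and 76.9% with up to 10. The last step, from 19 to 20 places, still added 0.805%. For other genes 75.1% was reached with 1 place and 88.7% with up to 2. Taking any limit from 1 to 20 places, the ratio of RP shares to control was 0.979 to 1.01 at 1% heptanal and 0.937 to 0.967 at 100% heptanal.

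**Figure D3:**
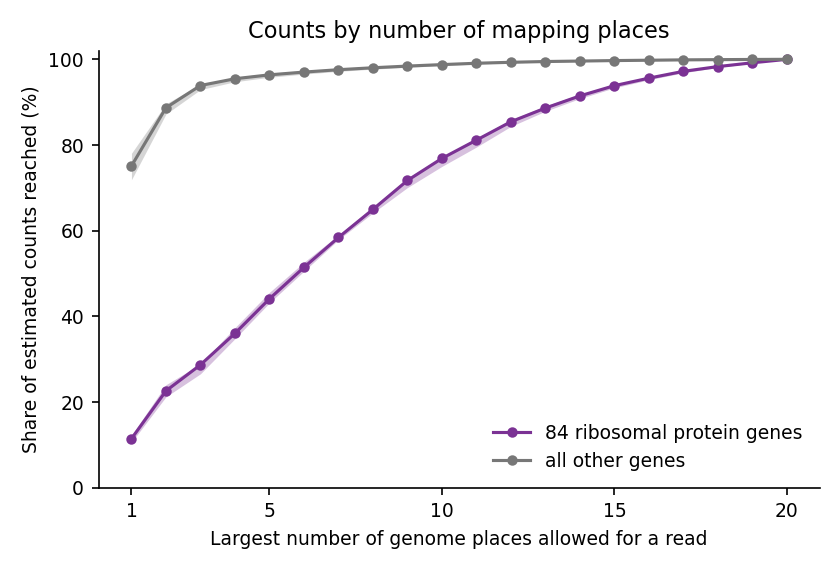
Share of the final estimated counts (vertical axis, percent) reached as reads with more genome places are allowed (horizontal axis), for 84 RP genes and for all other genes. Points are medians and bands the range over 9 mice. Other genes start at 75.1% with 1 place, whereas RP genes start at 11.5% and climb steadily to 20 places.

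Genes within the family differed widely in this. Of the 75 RP genes with at least 1000 counts over all mice, 60 (80%) had over 90% of their counts reassigned and 27 over 99%, beside 3.67% of 8972 other genes over 90%. Rps4x (99.9%), Rpl6, Rpl13, Rpl19 and Rpl11 had the highest shares. Under 50% were 6 genes, among them Rpl8 (9.44%), Rpl22 (11.6%), Rpl7l1 (40.3%), Rps27l (45.2%) and Rps3 (49.1%). Rpl8 and Rps3, which lies at the mRNA entry, had no copy in the genome at 90% identity over 80% of the coding sequence. For Rpl8 over 90% of counts came from reads with 1 place. Rpl8 had 1120, 885 and 1475 CPM in controls, 1278, 1070 and 1035 at 1% and 1068, 947 and 1170 at 100% heptanal. Litter 2 was lowest in controls and at 100% heptanal, but not at 1% heptanal, and the groups overlapped.

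The number of places followed the number of copies. Rpl4, with 1 copy on record, had 74.6% of its counts from reads with exactly 2 places. Rps6, with 16 copies, had a median of 11 places, Rpsa, with 18, had 13, and Rplp0, with 5, had 5. Rps12, with 24 copies, and Rpl29, with 67, had 56.9% and 56.1% of their counts at 20 places, the most the tables count. Over the 75 genes, Spearman's rho was 0.91 between median places and copies, and 0.953 with copies of at least 95% identity, given as a description across genes. The 11 genes with over 20 copies held 5.75% of RP counts, with a median of 8018 counts per kb of coding sequence, with a range of 923 to 63839, beside medians of 27910 to 33527 per kb for genes with 1 to 20 copies. Over the 75 genes Spearman's rho between counts per kb and copies was -0.156. Rpl21, a large subunit protein with the most copies at 81, had only 443 counts in all mice together, 17.6% of them reassigned, and Rpl7a with 78 copies had 995. Reads with more than 20 places are not in these tables.

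**Figure D4:**
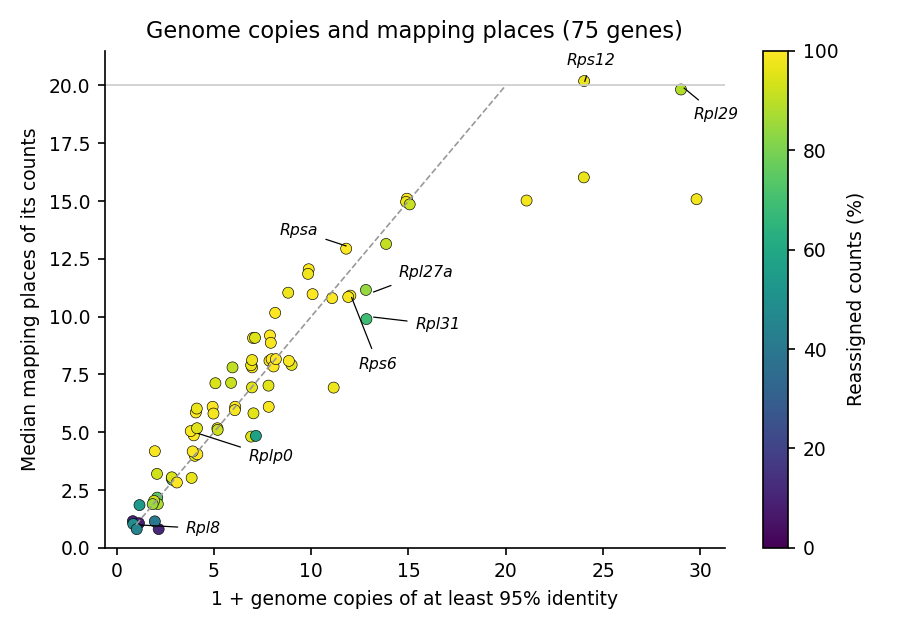
Median number of places of a gene's counts (vertical axis) against 1 plus its genome copies of at least 95% identity (horizontal axis) for the 75 RP genes with at least 1000 counts. Points are genes, spread by up to 0.2 to keep them apart, with colour for the reassigned share in percent, the dashed line for equality and the grey line for the limit of 20 places. The median lies within 2 of the dashed line for 68 genes, with Rpl8 at the lower end and Rps12 and Rpl29 at the limit.

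The 2 kinds of count did not always point the same way. Of the 63 RP genes tested in both, 19 at 1% heptanal and 22 at 100% heptanal had fold changes of opposite sign. The median absolute difference was 0.12 and 0.17 log2. The largest difference at 100% heptanal was that of Rpl36, a large subunit protein, at -0.22 ± 0.42 in estimated counts and 1.05 ± 0.64 in reads with 1 place (SE, edgeR). It had 12, 8 and 5 such reads in controls and 35, 16 and 11 at 100% heptanal. Rpl12, of the stalk base, was at -0.26 and 0.30, and at 1% heptanal Rps27 was at -0.50 and 0.27. Rpl7 at 1% heptanal was lower in both, at -0.71 and -1.76. No RP gene was called in reads with 1 place, where 0% of all genes were called at 1% heptanal and 0.0138% in each comparison with 100% heptanal. At an unadjusted p under 0.05 there were 0 of 63 in the 3 comparisons, where 0.892%, 4.22% and 3.35% of all genes were. Their median standard error was 0.45, larger than the 0.34 in estimated counts.

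**Figure D5:**
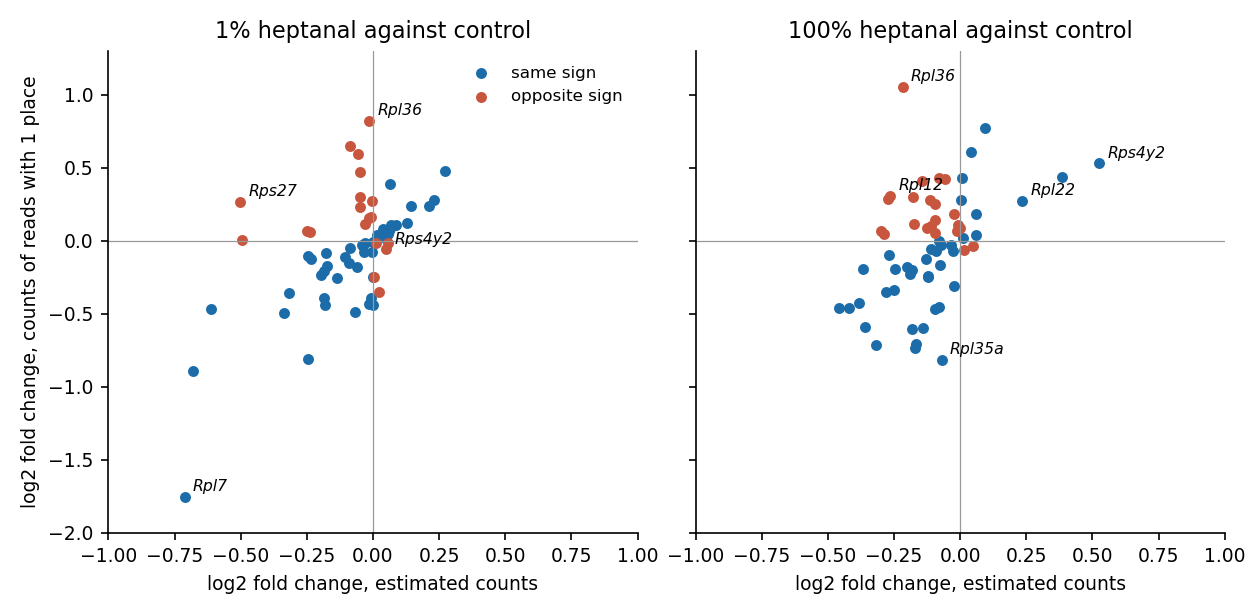
Log2 fold change against control in reads with 1 place (vertical axis) and in estimated counts (horizontal axis) for the 63 RP genes tested in both, at 1% heptanal (left) and 100% heptanal (right). Points are genes, red where the signs are opposite. The spread is wider on the vertical axis, and 19 and 22 points are red.

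Of 7 paralogs of RP genes, 4 had almost no counts. Rpl3l, the striated muscle form of Rpl3, had 6 counts in all 9 mice, against 77181 for Rpl3. Rpl39l, known from testis, had 14.2 counts, or 92.7 per kb, and Rpl39 had 1097 per kb. Rpl10l, an intronless testis gene, had 35 counts and 0 reads with 1 place, so that none of its counts was its own beyond doubt, and 54.5 counts per kb against 110266 for Rpl10. Rpl22l1 had 164 per kb and Rpl22 24050. The counts of these 4 were below the filter, so that they were not tested.

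The other 3 paralogs passed the filter. Rpl7l1, which acts in ribosome assembly, had 2822 reads with 1 place per kb against 112 for Rpl7, although its estimated counts per kb were 4726 against 49197. Rps27l had 16877 estimated counts per kb and Rps27 4365, the only one of the 7 pairs with the paralog higher in estimated counts. The gene the tables call Rps4y2 is Rps4l in RefSeq, a transcribed processed pseudogene on chromosome 6, with 2741 counts per kb against 63810 for Rps4x. It had the lowest p at 100% heptanal against control and against 1%. Its level was 16.4, 38.2 and 41.0 CPM in controls of litters 1, 2 and 3, 32.1, 34.1 and 32.9 at 1% and 60.9, 43.4 and 33.4 at 100% heptanal. The log2 fold change at 100% heptanal was 0.53 ± 0.36 (SE, edgeR unadjusted p = 0.177). It was higher in litters 1 and 2 but not in litter 3, and the groups overlapped.

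Genes of related processes gave no calls either. Of the 20 ribosome biogenesis genes, 14 TOP translation genes, 17 genes of the S6 kinase and mTOR pathway, 76 mitochondrial RP genes and 4 other genes of the cytosolic ribosome, 0 were called in any of the 3 comparisons with edgeR. Their medians at 100% heptanal were -0.20, 0.06, -0.15, 0.02 and -0.13 log2. The extremes were Polr1a, the large subunit of RNA polymerase I, at -0.83 in the biogenesis list, Tsc1, an inhibitor of mTOR, at -0.62 in the pathway list, and Mrpl42 at 0.64 among mitochondrial RP genes. Their medians at 1% heptanal were -0.05, -0.07, -0.06, 0.12 and 0.13 log2. At an unadjusted p under 0.05, Mrpl41 and Mrps33, named after their values were seen, were higher at 100% heptanal, as 2 of 76 mitochondrial RP genes, and 0 genes of the other 4 lists passed, where 4.17% of all genes did. With litter as a block 0 genes of these lists were called either. In that fit 3 of 20 biogenesis genes had an unadjusted p under 0.05 at 100% heptanal, where 10.4% of all genes did, and all 3 were lower. These were Nolc1, a nucleolar phosphoprotein, at -0.48 log2, Rrn3, an initiation factor of RNA polymerase I, at -0.55, and Polr1a at -0.70. Of the 17 pathway genes 1 was lower, Rps6kb1, which encodes S6 kinase 1, at -0.55, and of the 76 mitochondrial RP genes 2 were higher and 1 lower. Nolc1, Rrn3 and Rps6kb1 were also named after their values were seen. The tables also held 6 RP pseudogenes under symbols of their own, of which 0 were called, with medians of -0.10 at 1% and -0.31 at 100% heptanal and 85.2% of their counts reassigned.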

How the data were processed

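The pS6-IP RNAseq of 9 mice was analysed. Per the methods, Bowtie mapped the 50 base single-end reads on mm10, BEDTools assigned them to genes, and the authors made estimated counts by sharing out reads with several places in a rescue scheme. Versions and the handling of reads across splice junctions are not given in the sources used here. As deposited, the counts are in 9 tables with 21 columns each, with no header and different row orders, so the meaning of columns was read from the values. A column of whole counts was taken as reads with 1 place, and the later columns, which never fall, as estimated counts for up to 20 places. Cycles of PCR without molecular identifiers mean that counts are not independent molecules.

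Estimated counts were rounded. The main test was the quasi-likelihood test of edgeR 4.0.16 under R 4.3.3 on 3 groups without a block, after filterByExpr and TMM, with Benjamini-Hochberg adjustment over all genes tested and a threshold of 0.05. Standard errors were taken from the fold change and its test statistic. CPM are TMM-normalized. The fit was also run on simulated counts, and the outcome of that run is not reported here. A floor of 3 counts is 0.552 CPM in the smallest library.

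Replicate numbers come from the ages in the labels, 1 mouse of each group per age. Deviations from group means correlated within every same-litter pair (r of 0.155 to 0.73 in 9 pairs, mean 0.54). In the other 18 pairs r ran from -0.746 to 0.449, with a mean of -0.253, so the ranges overlapped. Deviations within a group sum to 0, so a positive mean in same-litter pairs goes with a negative mean in the others. Pairing by litter was taken from the ages and the methods. Mice of different litters also differ in age, and age and litter cannot be told apart. No 2 libraries of a group agreed within sampling noise (chi-square per degree of freedom at least 31.7).

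Genome copies were found with BLAST 2.17.0 (megablast, word size 20) of GENCODE coding sequences against GRCm38, counted outside the gene at 90% identity over 80% of the length. Rps4y2 was searched with its exon. Starts and coordinates come from RefSeq and GENCODE on GRCm38, and sequence of chromosome 18 was not printed.

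The genes and lists were chosen with earlier results of these data known. Named genes are Rps6, the 5 with the largest mean share, the 5 with the lowest p in each comparison, the 5 highest and 5 lowest in reassigned share among those with 1000 counts, paralogs and their partners, and those whose sign differs between the 2 kinds of count. Other list genes are the extremes of their list. Rpl7a, Rps3, Rps12, Rps24, Rps28 and Rpl36a were named after their values were seen. Values of some genes under this rule are not reported here. Alternatives were the litter block, reads with 1 place, DESeq2 1.42.0, other scalings, filters and denominators, and leaving out each mouse. One, leaving out 7 genes from the common profile, was added after seeing the data. Plots were drawn with matplotlib 3.10.9, and tables made with Python 3.11.15, numpy 2.4.6, pandas 2.3.3 and scipy 1.17.1.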

Additional observations from a re-analysis of the deposited data

How the results depend on the processing

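The count of 0 RP genes called in each of the 3 comparisons held under all 16 alternatives, and with litter as a block the pairing changed no call. In that fit the median log2 fold change of RP genes was 0.02 at 1% heptanal, -0.08 at 100% and -0.11 for 100% against 1%, and within litters the geometric mean ratio of RP shares was 1.01 and 0.957. The block lowered the median standard error of RP genes from 0.34 to 0.19, and genes called over the whole table went from 0, 2 and 2 to 0, 48 and 12, while DESeq2 called 1, 68 and 25.

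Against OSN markers the ratio of RP counts to control became 0.743 at 1% and 0.42 at 100% heptanal. Leaving out each mouse gave ratios of 0.869 to 1.14 at 1% and 0.828 to 1.08 at 100% heptanal (1.02 without its litter 2 mouse), with the extremes set by the controls of litters 2 and 3, and medians of -0.26 to 0.21, -0.35 to 0.12 and -0.21 to 0.08 log2, the last pair set by the 1% mice of litters 2 and 1. The reassigned share was 96.7%, 97.0% and 96.7% as a median over genes and 91.5%, 91.3% and 91.1% without the 5 largest genes. The common profile held 12.5% of the sum of squares in reads with 1 place, 13.3% to 28.6% when each mouse was left out, lowest without the control of litter 3, and 56.5% without the 7 genes, which their choice raises. The cause of the other moves was not tested.

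Fold changes of single RP genes were recomputed under the alternatives, except those of Rpl7, and those of genes outside the family were recomputed only with the block. No RP gene among them was called, and these changed sign. In reads with 1 place, without and with the block, Rps6 was at 0.049 and 0.037 at 100% heptanal, Rpl36 at 0.82 and 0.94 at 1% heptanal and at 1.05 and 1.02 at 100%, Rps27 at 0.27 and 0.46 at 1% and Rpl12 at 0.30 and 0.32 at 100%. Rpl36 at 1% was 0.031 with the block and 0.018 without TMM factors. Leaving out each mouse gave -0.31 to 0.0057 for Rpl5, -0.38 to 0.0088 for Rps3a1, -0.40 to 0.12 for Rpl29, -0.34 to 0.32 for Rpl36 and -1.30 to 0.60 for Rps27 at 1% heptanal. At 100% it gave -0.52 to 0.0012 for Rpl29, -0.43 to 0.014 for Rpl7l1, -0.30 to 0.13 for Rps6 and -0.54 to 0.12 for Rpl36, and for 100% against 1% -1.10 to 0.065 for Rps27l. The highest values came without the control of litter 3, and for Rps27l without the 1% mouse of litter 1. With 3 mice a group, small changes in single RP genes were not detectable.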
